A study of Mus musculus with 12 samples.

Results

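Regulatory T cells (Treg, sorted as CD4+CD25+) were compared with conventional CD4 T cells (Tconv, sorted as CD4+CD25-) from the spleens of NOD mice, an inbred strain that develops autoimmune diabetes. The comparison took the arrays titled as NOD Treg or NOD Tconv, 3 of each, which are 6 of the 12 arrays of the series. The other 6 hold the same cell populations of B6.H2g7 mice, written B6g7, which are B6 mice that carry the MHC haplotype of NOD. Every RNA sample was a pool of 3 mice, 6 weeks old, with no treatment named in the labels, and the design text calls the replicates of a population independent. Cells without CD8a, CD11b, CD69 and B220 were kept in a double sort after magnetic enrichment, and Treg were the CD25hi cells among them. On restaining, 89%, 95% and 95% of the cells of NOD Treg replicates 1, 2 and 3 were Foxp3+, against 94%, 96% and 96% in B6g7. The question stated for the series is how the Treg to Tconv ratio compares between the strains, and it is given here for NOD.

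Treg restrain immune responses against the body's own tissues, and their identity depends on the transcription factor Foxp3. They carry the high-affinity receptor for IL-2, of which Il2ra encodes the CD25 chain, and take up IL-2 that they hardly make themselves. They also carry receptors and enzymes used in suppression, such as Ctla4, which binds the costimulatory ligands of antigen-presenting cells, and the ectoenzymes that turn extracellular ATP into adenosine. Loss of Treg function hastens diabetes in NOD mice.

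The deposited values are array intensities normalised by the authors, used here as log2. The median intensity of the 6 NOD arrays lay between 84.8 and 86.7 on the linear scale, and arrays of one NOD group correlated with r between 0.9888 and 0.9962. Within a group the standard deviation of a gene had a median of 0.127 in NOD Treg and 0.107 in NOD Tconv (log2, 3 arrays each). A level is called dim where the group mean lay under 5.28, the 25th percentile of all probe set means, and no fold is given there. A log2 change against a dim level is printed as fitted, and its size is not a measured fold. Each array is a bulk measurement, so fewer cells of a type and less RNA per cell cannot be told apart.

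Foxp3 and Il2ra matched the labels in each of the 6 arrays. Foxp3 stood at 10.67, 11.22 and 11.26 (log2 level) in the Treg arrays and at 5.57, 5.92 and 6.24 in the Tconv arrays. The groups were far apart, and replicate 1 was the lowest of each. Treg exceeded Tconv 35.3-fold (log2 change 5.14 with a standard error, given after ± throughout, of ± 0.20, 3 arrays per group, limma adjusted p = 2.28e-08). Il2ra, whose protein was used in the sort, stood at 10.83, 10.69 and 10.91 in Treg and at 5.75, 5.70 and 5.79 in Tconv (5.07 ± 0.10). A second probe set of Il2ra gave a smaller rise of 1.58 ± 0.32 (limma adjusted p = 0.0149). Cd4 stood between 9.63 and 9.89 in Treg and between 9.90 and 10.22 in Tconv (-0.29, limma adjusted p = 0.47). Cd69 was well above the dim threshold in both populations, at 11.49 to 11.95 and 11.70 to 12.26 (-0.26, limma adjusted p = 0.672), although cells with CD69 protein had been sorted away.

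The promoters of both genes are shown because these genes define the population. The 250 bases before the first listed RefSeq start of Foxp3 lie at chrX:7579426-7579675 and those of Il2ra at chr2:11642542-11642791, both on the plus strand of GRCm38.p6. Also shown is that of Dapl1 at chr2:59484403-59484652 on the plus strand, because it was the only one with a forkhead motif among the promoters of the genes with the largest changes, as described further on. The match is in capitals.
Foxp3: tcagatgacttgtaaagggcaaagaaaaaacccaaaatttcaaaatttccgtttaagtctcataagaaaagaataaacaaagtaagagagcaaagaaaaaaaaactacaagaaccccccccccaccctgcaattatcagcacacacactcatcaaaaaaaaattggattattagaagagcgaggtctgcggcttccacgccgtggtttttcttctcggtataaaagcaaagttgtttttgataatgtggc
Il2ra: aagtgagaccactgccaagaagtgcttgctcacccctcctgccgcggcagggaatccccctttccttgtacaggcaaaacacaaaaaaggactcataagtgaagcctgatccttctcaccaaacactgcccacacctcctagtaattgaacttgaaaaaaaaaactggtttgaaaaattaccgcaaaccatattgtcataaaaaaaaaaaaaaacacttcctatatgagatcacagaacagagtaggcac
Dapl1: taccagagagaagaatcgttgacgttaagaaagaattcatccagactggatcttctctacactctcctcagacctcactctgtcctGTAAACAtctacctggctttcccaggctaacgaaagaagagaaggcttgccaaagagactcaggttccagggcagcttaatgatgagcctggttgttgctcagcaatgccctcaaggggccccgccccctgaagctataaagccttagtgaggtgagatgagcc

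Over all genes, 520 of 18193 (2.86%) were called higher in NOD Treg and 277 (1.52%) lower, at a limma adjusted p under 0.05 over all probe sets. Of the genes called higher, 211 changed by a log2 value of at least 1 and 45 by at least 2. Of those called lower, 85 fell to -1 or below and 21 to -2 or below. The median change was 0.87 among the genes called higher and -0.72 among those called lower, against -0.02 over all genes. The 3 Treg and 3 Tconv values of each called gene did not overlap, whereas 1506 of all genes (8.28%) lay wholly higher in Treg and 2011 (11.1%) wholly lower. So more genes were wholly lower than wholly higher, while more were called higher than lower. Both counts fell in the 6 fits without 1 NOD array. The 277 lower calls became 171 without Treg replicate 2 at the least and 238 without Treg replicate 1 at the most. The 520 higher calls became 355 to 449. The ratio of mean linear intensities, the quantity the design text describes, was at least 2 in 218 genes, of which 210 were called higher, and at most 0.5 in 86, of which 84 were called lower.

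**Figure D1:**
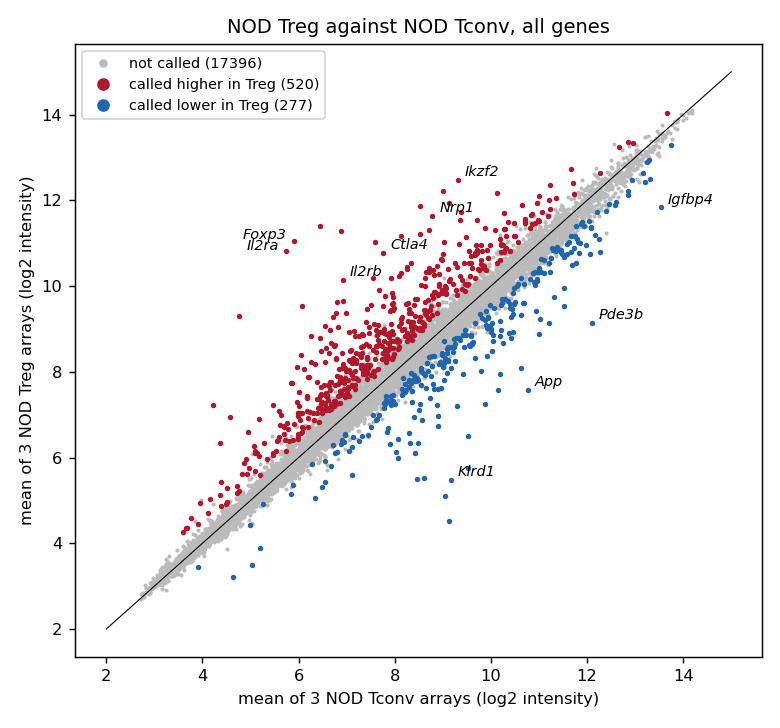
Mean log2 intensity of the 3 NOD Tconv arrays (x axis) and the 3 NOD Treg arrays (y axis) for each of 18193 genes, with the line of equal levels. Genes called higher in Treg (520, red) lie above the line and genes called lower (277, blue) below it, and Foxp3 and Il2ra stand at the upper left.

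Replicate numbers were taken to pair the NOD arrays, since arrays of the same number deviated together from their group means. The correlations were 0.56, 0.31 and 0.4, against 0.22 for Treg replicate 2 with Tconv replicate 3. The labels do not say what a number shares. With the number as a block, 717 genes (3.94%) were called higher and 522 (2.87%) lower, so the lower calls rose by more than the higher ones.

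The 30 genes with the largest rise had log2 changes between 5.14 (Foxp3) and 2.35 (Usp27x), and the 30 with the largest fall had changes of -1.66 (Xkrx) or below. Of the rises 3 were dim in Tconv (Itgb8, Pla2g4f and Sh3bgrl2) and of the falls 2 were dim in Treg (Lrrc75b and Pdlim4). The largest fall with both levels above the dim threshold was that of Lypd6b, from 9.54, 9.45 and 9.60 in Tconv to 6.0, 5.96 and 5.32 in Treg (-3.77 ± 0.22). Each of these 60 was called in all 6 fits without 1 NOD array. They were chosen among called genes whose Treg and Tconv values do not overlap. The same direction in each numbered pair thus follows from the choice and is no further support. Of the 30 rises 17 have other probe sets on the array, and in 9 of them at least 1 was also called higher. Of the 30 falls 18 have others, and in 8 at least 1 was also called lower. For 0 of the 60 genes was another probe set called in the opposite direction. Some genes described further on were near 0 by other probe sets, all dimmer and not called. Examples are Il1rl2 (0.03), Vipr1 (0.16), Epas1 (-0.07), Slc16a5 (-0.13), Fasl (-0.05), Ahr (0.04), Bcl6 (-0.04) and Tnfrsf1b (0.01). Further examples are Ikzf3 (0.12 and 0.04), Bcl2l1 (0.02, -0.06 and 0.01), St6galnac2 (0.11), Ryr2 (0.17), Irak1bp1 (0.18) and Il21 (-0.17).

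**Figure D2:**
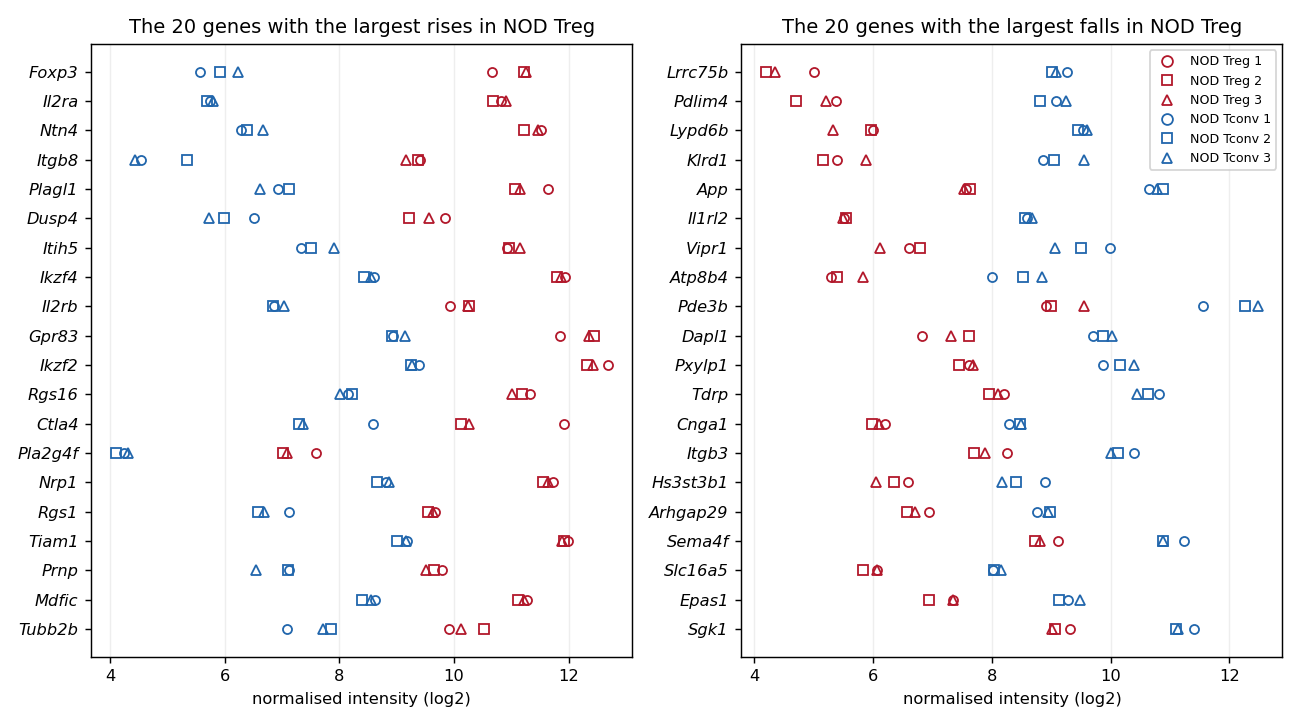
Normalised intensity (log2, x axis) in each NOD array of the 20 genes with the largest rise (left) and the 20 with the largest fall (right), red for Treg and blue for Tconv, with a marker for each replicate number. The red and blue points of each gene are apart, which the choice of these genes fixed. Ctla4 in replicate 1 is higher than the other arrays of its population in both.

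Among transcription factors, 15 of 42 measured genes (35.7%) were called higher and 6 (14.3%) lower (median change 0.24). For this and the later lists, the shares over all genes were 2.86% called higher and 1.52% called lower. The lists were chosen with earlier results of these data known, so their counts are a description. The factors furthest up next to Foxp3 were Plagl1, a zinc finger factor, and the Ikaros family members Ikzf4 and Ikzf2, which encode Eos and Helios. Ikzf4 stood at 11.94, 11.80 and 11.86 in Treg and at 8.61, 8.44 and 8.55 in Tconv, a tight pair of groups 10.1-fold apart (3.33 ± 0.11, limma adjusted p = 5.96e-09). Ikzf2 stood at 12.68, 12.33 and 12.43 against 9.39, 9.26 and 9.27 (3.17 ± 0.19). Helios is used as a marker of Treg of thymic origin, and its Tconv level was also above the dim threshold. The family did not move as one: Ikzf3, which encodes Aiolos, was called higher (1.0 ± 0.09) with Tconv values of 9.54 in each array, and Ikzf1, which encodes Ikaros, lower (-0.73 ± 0.13, limma adjusted p = 0.00768). The other probe set of Ikzf1 gave 0.01. Plagl1 stood at 11.65, 11.06 and 11.16 against 6.93, 7.13 and 6.61 (4.40 ± 0.19), with 0.30 and 0.21 by its dimmer probe sets, neither called.

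Several factors of helper T cell lineages were higher in Treg as well. Maf, a factor of IL-21 and IL-10 producing cells, stood at 10.03, 10.76 and 10.51 against 8.21, 9.03 and 8.89 (1.73 ± 0.29, limma adjusted p = 0.00377). Gfi1, a transcriptional repressor, changed by 1.78 ± 0.11, Eomes, a T-box factor of cytotoxic and memory cells, by 1.67 ± 0.20, Bhlhe40 by 1.65 ± 0.20 and Ahr, the receptor for aryl hydrocarbons, by 1.44 ± 0.15. Bcl6, the factor of follicular helper T cells, rose by 0.73 and Nfil3 by 0.81. The factors called lower included the T-box factor of Th1 cells Tbx21 (-1.11 ± 0.19, limma adjusted p = 0.00423), the inhibitor of E proteins Id2 (-1.48 ± 0.15), the hypoxia-inducible factor Epas1 (-2.09 ± 0.18) and the chromatin organiser Satb1 (-0.61 ± 0.09). Tbx21 and Eomes, members of one family, thus moved in opposite directions. The calls of Gata3 (0.51), Rora (0.75), Id3 (0.94) and Runx3 (-0.67) each ended in at least 3 of the 6 fits without 1 array, with highest limma adjusted p of 0.199 (Gata3, without Treg replicate 3), 0.0802 (Rora, without Tconv replicate 2), 0.099 (Id3, without Treg replicate 3) and 0.0645 (Runx3, without Tconv replicate 3).

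Of the 33 measured genes of the Treg identity list, 26 were called higher and 0 lower by limma, 30 and 0 at an unadjusted p under 0.05, and the list had a median change of 1.87. The list was chosen with earlier results of these data known and holds Foxp3, which defines the population. Its counts are thus a description and no independent support. Izumo1r, which encodes the folate receptor FR4, stood at 10.24, 10.60 and 10.77 in Treg and 7.97, 8.39 and 8.67 in Tconv (2.20 ± 0.22). Klrg1, an inhibitory lectin receptor of differentiated cells, changed by 1.88 ± 0.19, the activation marker Cd83 by 1.89 ± 0.17 and the extracellular matrix gene Ecm1 by 1.52 ± 0.14. Ebi3, which encodes a chain of IL-35, rose by 0.55 ± 0.10, and the call of the suppressive mediator Fgl2 (0.55) was lost without Treg replicate 3, Tconv replicate 1 or Tconv replicate 3 (highest limma adjusted p = 0.0839). The 7 members that were not called were Gzmb (0.41), Icos (0.45), Il10 (0.13), Prdm1 (-0.18), S100a4 (0.50), S100a6 (0.41) and Socs2 (0.69). These include the genes of effector Treg, Il10 and Prdm1, whose Treg values were 5.79 to 5.82 and 7.41 to 7.78. With the replicate block Icos (block adjusted p = 0.0272), Socs2 (0.0266) and S100a4 (0.0439) were also called.

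The receptor chains for IL-2 had the largest rises of the cytokine receptor and JAK-STAT list, in which 5 of 34 measured genes were called higher and 2 lower (median change 0.11). Il2rb, the signalling chain shared by the IL-2 and IL-15 receptors, stood at 9.94, 10.27 and 10.25 in Treg and at 6.87, 6.84 and 7.04 in Tconv (3.24 ± 0.15, 9.42-fold), with 0.30 (limma adjusted p = 0.133) by its other probe set. Il2 itself was close in both, at 6.36 to 6.56 and 6.57 to 6.83 (-0.21, limma adjusted p = 0.615). Of the called genes, Il7r, the receptor chain of naive T cells, fell by 0.80 from values of 13.24 to 13.38, and Il1rl2, an IL-1 family receptor, fell by 3.09 ± 0.17 from 8.60, 8.56 and 8.67 to 5.51, 5.54 and 5.50. The calls of Il10rb (0.64) and Il12rb1 (0.53) both ended without Treg replicate 3 or Tconv replicate 2, which left 3 genes called higher, and had highest limma adjusted p of 0.0819 and 0.0535. With the replicate block 8 genes were called higher, Stat5a (0.44, block adjusted p = 0.0226), Ifngr1 (0.54, 0.0133) and the interferon receptor chain Ifnar2 (1.32, 8.33e-04) being the additions. In the list of cytokine signal suppressors, Cish, a target of STAT5, stood at 10.50, 10.77 and 10.94 against 8.79, 9.11 and 9.09 (1.74 ± 0.15), while the call of Socs5 (0.93) ended in each of the 6 fits without 1 array (highest limma adjusted p = 0.15, without Tconv replicate 1). The count of this list was thus 2 higher and 0 lower of 12 measured by limma, with 3 and 0 at an unadjusted p under 0.05 (median change 0.18), and 1 higher without any array but Tconv replicate 2. With the block 4 were called, Socs2 and Socs3 (0.67, block adjusted p = 0.0162) among them.

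In the CD28 and CTLA-4 family with the coinhibitory receptors and their ligands, 7 of 21 measured genes were called higher and 0 lower by limma (9 and 1 at an unadjusted p under 0.05, median change 0.08). Ctla4 stood at 11.92, 10.13 and 10.27 in Treg and at 8.59, 7.30 and 7.37 in Tconv. Replicate 1 was the highest array of both populations, by about as much, and its Tconv value stayed under each Treg value. The change was 3.02 ± 0.50 (limma adjusted p = 0.00351), and it stayed called without each single NOD array (highest limma adjusted p = 0.0232). Cd200, the ligand of an inhibitory receptor of myeloid cells, stood at 11.37, 11.69 and 11.55 against 9.65, 9.72 and 9.79 (1.81 ± 0.10). Cd86, a costimulatory ligand better known from antigen-presenting cells, stood at 8.15, 7.89 and 8.15 against 6.13, 6.04 and 6.19 (1.95 ± 0.12, limma adjusted p = 6.46e-07), with 0.63 (limma adjusted p = 0.11) by its other probe set. Smaller rises were those of Cd96 (0.59), Pdcd1, which encodes PD-1 (0.59), and its ligand gene Pdcd1lg2 (0.58). The call of Cd5 (0.57) was lost without Treg replicate 1, Treg replicate 3 or Tconv replicate 2 (highest limma adjusted p = 0.0744). Without Treg replicate 1 there was also 1 gene called lower, and with the block Vsir, an inhibitory receptor, was called lower (-0.53, block adjusted p = 0.00406).

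Of the 23 measured genes of the TNF receptor superfamily, 5 were called higher and 0 lower by limma (8 and 0 at an unadjusted p under 0.05, median change 0.07). Tnfrsf4, which encodes OX40, stood at 10.98, 11.47 and 11.52 in Treg and at 8.66, 8.66 and 8.80 in Tconv (2.62 ± 0.15, 6.14-fold). Tnfrsf18, which encodes GITR, was well above the dim threshold in both populations, at 10.85, 10.81 and 10.82 against 9.91, 9.73 and 9.81 (1.01 ± 0.12, limma adjusted p = 2.08e-04). Tnfrsf1b, which encodes TNFR2, rose by 1.34 ± 0.14, Tnfrsf9, which encodes 4-1BB, by 1.29 ± 0.19 and the death domain receptor Tnfrsf25 by 0.83 ± 0.14. The 18 others, Cd27 (0.19) and Fas (0.21) among them, lay between -0.21 and 0.49. Downstream, Traf1, an adaptor of these receptors, rose by 1.27 ± 0.20 and the inhibitor of apoptosis Birc3 by 0.76 ± 0.11.

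Integrin and adhesion genes moved both ways. Itgb8, the integrin chain that with Itgav activates latent TGF-beta, stood at 9.40, 9.38 and 9.17 in Treg and at dim values of 4.54, 5.34 and 4.44 in Tconv (fitted change 4.54 ± 0.23, and 3.48 with a pseudocount of 32; limma adjusted p = 1.70e-07). Itgae, the CD103 chain that binds E-cadherin, rose by 1.87 ± 0.11 and Icam1 by 0.74 ± 0.10. Itgb3, the beta 3 chain, went the other way, from 10.40, 10.12 and 10.01 in Tconv to 8.25, 7.70 and 7.88 in Treg (-2.24 ± 0.20), with -0.10 by its dimmer probe set. In all 4 of 28 genes were called higher and 2 lower (median change 0.07), and the lower count was 1 without Treg replicate 1, Tconv replicate 1 or Tconv replicate 3, with which the call of Icam2 (-0.62, highest limma adjusted p = 0.0892) ended. Itgav itself (0.72) lost its call in 5 of the 6 fits, all but that without Tconv replicate 2 (highest limma adjusted p = 0.136).

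Among the 29 measured neuropilin, plexin, netrin and semaphorin genes, 6 were called higher and 2 lower (median change 0.04). Ntn4, a secreted netrin, stood at 11.52, 11.23 and 11.47 against 6.28, 6.39 and 6.67 (4.96 ± 0.15, 31.1-fold), the largest rise next to Foxp3 and Il2ra. A second, dimmer Ntn4 probe set gave 0.27 (limma adjusted p = 0.397). Nrp1, the semaphorin and VEGF coreceptor used as a Treg surface marker, stood at 11.73, 11.56 and 11.64 against 8.81, 8.66 and 8.86 (2.87 ± 0.11, 7.30-fold), and its 3 other probe sets were each called higher (2.92, 2.59 and 1.92). Sema4f, a membrane semaphorin, was lower, at 9.12, 8.73 and 8.81 against 11.23, 10.88 and 10.88 (-2.11 ± 0.21). Sema4a, which stood at 8.42, 9.30 and 9.11 against 9.93 and 10.48 in Tconv replicates 1 and 2 and 11 in replicate 3 (-1.52 ± 0.30, limma adjusted p = 0.0111), missed the threshold without Tconv replicate 3 (limma adjusted p = 0.0532), which left 1 gene called lower. Plxnc1 (0.83), Sema4c (0.83) and Ntn1 (1.06, dim in Tconv) rose by less, and the call of Nrp2 (0.66) ended in 5 of the 6 fits, all but that without Tconv replicate 2 (highest limma adjusted p = 0.136).

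The TGF-beta pathway was split. Of 25 measured genes 5 were called higher and 4 lower (median change -0.06). The receptor chains Tgfbr2 and Tgfbr3 were lower in Treg: Tgfbr2 at 10.84, 10.72 and 10.77 against 11.99, 11.81 and 11.71 (-1.06 ± 0.11), and Tgfbr3, the coreceptor betaglycan, at 9.47, 9.46 and 9.32 against 10.97, 10.91 and 10.91 (-1.51 ± 0.11). Tgfbr2 gave -0.22 and 0.07 by dimmer probe sets and Tgfbr3 -0.03. Only these and Itgb8 were called in each fit without 1 NOD array. The type I receptor Tgfbr1 (0.96, highest limma adjusted p = 0.095, without Tconv replicate 1), Bmpr2 (0.88, 0.0882), Skil (0.42, 0.0872), Smad1 (-0.59, 0.162) and Smad7 (-0.53, 0.0816) did not hold. The higher count was 1 without Treg replicate 1 or Tconv replicate 1, 2 without Treg replicate 3 or Tconv replicate 2 and 3 without Tconv replicate 3, and the lower count was 2 without Treg replicate 2, Treg replicate 3 or Tconv replicate 1.

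Genes of cAMP, purine and G protein signalling moved both ways, 8 of 36 higher and 7 lower (median change 0.10). On the receptor side Gpr83, an orphan receptor, stood at 11.85, 12.44 and 12.35 against 8.93, 8.92 and 9.14 (3.22 ± 0.15), and its second probe set gave 2.85. Ptger2, a receptor for prostaglandin E2 that raises cAMP, stood at 9.71, 9.01 and 9.43 against 6.47, 7.07 and 6.76 (2.62 ± 0.25), and its relative Ptger4 rose by 0.82 ± 0.10 from Tconv values of 11.17 to 11.24. Vipr1, the receptor for vasoactive intestinal peptide, was in contrast 8.10-fold lower in Treg, at 6.61, 6.79 and 6.12 against 9.99, 9.51 and 9.07 (-3.02 ± 0.28). Gpr174 was higher (1.63 ± 0.23) and Gpr171 lower (-1.08 ± 0.18). The regulators of G protein signalling Rgs16, at 11.32, 11.19 and 11.02 against 8.15, 8.23 and 8.01 (3.04 ± 0.15), and Rgs1 (2.82 ± 0.15) were among the largest rises.

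On the enzyme side, Pde3b, the phosphodiesterase that degrades cAMP and is repressed by Foxp3, stood at 8.92, 8.99 and 9.55 in Treg and at 11.56, 12.26 and 12.48 in Tconv (-2.94 ± 0.23, 7.68-fold lower). Pde4b was lower by a smaller amount (-0.79 ± 0.15). The ectoenzymes of the adenosine route were both higher: Nt5e, which encodes CD73, at 7.94, 7.67 and 7.66 against 6.06, 5.69 and 5.81 (1.90 ± 0.17; -0.10 and -0.15, not called, by its other probe sets), and Entpd1, which encodes CD39, at 6.35, 6.28 and 6.16 against dim values of 4.90, 5.16 and 5.19 (fitted change 1.18 ± 0.12, and 0.72 with a pseudocount of 32). Both other probe sets of Entpd1, also dim in Tconv, were called higher. The calls of Pde7a (-0.53), Adcy7 (-0.35) and Gpr18 (-0.59) ended without Tconv replicate 3 (limma adjusted p = 0.139, 0.129 and 0.0633), which left 4 of the 7 lower calls. Those of Pde7a and Adcy7 also ended without 4 and 5 other single arrays.

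Naive and quiescence genes were lower or not called, with 1 exception: 10 of 23 were called lower and 1 higher, with a median change of -0.41. Apart from Pde3b, the largest fall was that of Dapl1, at 6.83, 7.61 and 7.31 against 9.71, 9.88 and 10.02 (-2.62 ± 0.18). Igfbp4, a secreted binding protein for insulin-like growth factors, stood at 13.60, 13.49 and 13.51 in Tconv and lower in Treg, at 11.87, 11.88 and 11.76 (-1.70 ± 0.09), a fall that 4 of its 5 other probe sets shared (-1.16 to -2.93). Ccr7, the lymph node homing receptor, fell by 0.92 ± 0.13 and Lef1, a TCF family factor, by 0.89 ± 0.12, with -0.58 (not called) by the dimmer Lef1 probe set. Satb1 was lower by 3 of its 4 other probe sets too (-0.70 to -0.81). The factors Foxo1 (0.11), Foxp1 (0.06) and Klf2 (-0.41) and the egress receptor S1pr1 (-0.36) were not called. The single gene called higher, Id3, lost its call as given above without Treg replicate 2, Treg replicate 3, Tconv replicate 1 or Tconv replicate 2, and that of Actn1 (-0.72) ended without Treg replicate 1, Treg replicate 3, Tconv replicate 2 or Tconv replicate 3 (highest limma adjusted p = 0.0913).

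Chemokine and egress receptors gave 4 of 25 higher and 2 lower (median change 0.00). Ccr6 stood at 9.74, 9.28 and 9.31 against 7.90, 8.13 and 7.86 (1.48 ± 0.15) and the atypical receptor gene Ccrl2 changed by 0.98 ± 0.11. Cxcr3, the receptor of Th1 cells, fell by 0.86 ± 0.15. The gut homing receptors Ccr9 (1.02) and Gpr15 (0.99) both lost their calls without Tconv replicate 1 or Tconv replicate 3, which left 2 of the 4 higher calls, and each also without 2 other arrays (highest limma adjusted p = 0.197 and 0.0735). Ccr8 (-0.00), Ccr4 (-0.16), Cxcr4 (-0.60) and Cxcr5 (0.30) were not called, Cxcr4 being called lower with the block (block adjusted p = 0.037).

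**Figure D3:**
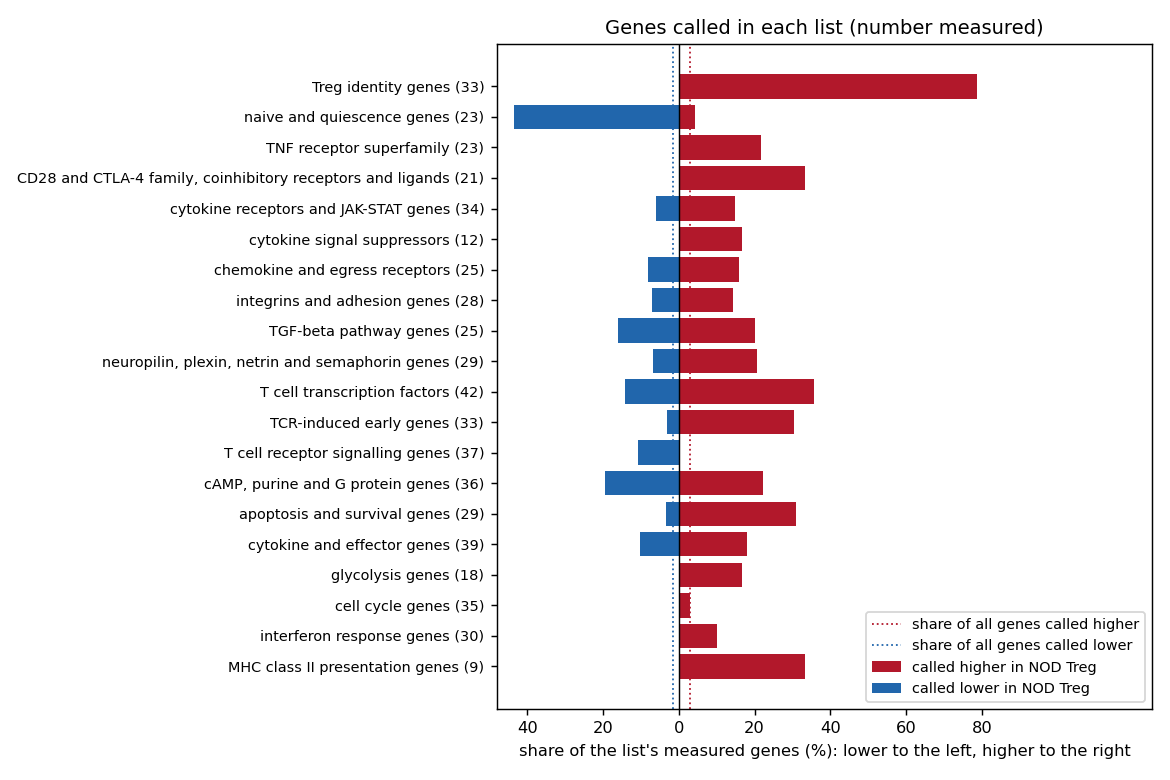
Share of the measured genes of each of 20 lists (number measured in brackets) called higher (red, right) or lower (blue, left) in NOD Treg, with dotted lines at the shares over all genes (2.86% and 1.52%). The Treg identity list reaches 78.8% to the right, the naive and quiescence list 43.5% to the left, and cell cycle genes stay at the line of all genes (2.86%). The lists were chosen with earlier results of these data known.

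Genes induced early by T cell receptor stimulation were called higher in 10 of 33 cases and lower in 1 (median change 0.20), but few of these calls were stable. Dusp4, a phosphatase of MAP kinases, stood at 9.84, 9.22 and 9.56 against 6.52, 5.99 and 5.73 (3.46 ± 0.18), and Rgs1 at 9.67, 9.54 and 9.64 against 7.12, 6.58 and 6.69. With Cd83 and Nr4a3 (0.99 ± 0.16), these were the 4 genes called without each single NOD array, though Nr4a3 gave -0.07 and -0.22 by its 2 other probe sets, neither called. Nr4a1 (0.82), Egr2 (0.77), Rel (0.89), Dusp1 (0.83), Nfkbiz (0.87) and Nfkbia (0.36) each lost the call in at least 3 of the 6 fits, with highest limma adjusted p between 0.0951 (Rel, without Tconv replicate 2) and 0.168 (Dusp1, without Tconv replicate 2). The 4 other probe sets of Nfkbia, which encodes an inhibitor of NF-kB, were each called higher (0.59, 0.80, 0.87 and 0.53), as was that of Egr2 (0.92). The higher count was 4 without Treg replicate 3 or Tconv replicate 3, 5 without Treg replicate 1 or Tconv replicate 2, and 7 without Treg replicate 2. Dusp6 (-0.76), called lower, kept its call only without Treg replicate 1, and with the block 3 genes were called lower, one being Fosl2 (-0.45, block adjusted p = 0.015). The acute response genes Fos (0.05), Junb (0.03), Egr1 (-0.26) and Myc (0.28) were not called.

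In the T cell receptor signalling list 0 of 37 genes were called higher and 4 lower by limma (2 and 11 at an unadjusted p under 0.05, median change -0.20). Themis, a regulator of signalling during T cell selection, stood at 9.32, 9.29 and 9.46 against 10.47, 10.49 and 10.46 (-1.12 ± 0.09, limma adjusted p = 1.17e-05) and was the only one called in each fit without 1 array. Grap2 (-0.48), Malt1 (-0.69) and Pag1 (-0.68) were not called without Treg replicate 2, Treg replicate 3 or Tconv replicate 3, where 1 call was left, and 2 were left without Tconv replicate 1 or Tconv replicate 2; their highest limma adjusted p were 0.191, 0.0931 and 0.0912. This list changed most with the replicate block, by which 10 genes were called lower and 2 higher. The additions were Cd3g (-0.61, block adjusted p = 0.016), Cd247 (-0.47, 0.0371), Lat (-0.55, 0.00804), Nfatc3 (-0.59, 0.00369), Rasgrp1 (-0.46, 0.0416) and Txk (-0.72, 0.0492) on the lower side and Dgkz (0.55, 0.00348) and Ppp3ca (0.69, 0.04) on the higher. Cd3g is an example. Its values of 11.07, 10.63 and 10.85 in Treg and 11.87, 11.20 and 11.29 in Tconv nearly met, while the numbered pairs differed by -0.80, -0.57 and -0.44.

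Of 39 measured cytokine and effector genes 7 were called higher and 4 lower (median change -0.03). The 4 called lower were Fasl, Ccl5, Il21 and Ifng. Fasl, the death ligand, stood at 7.34, 7.20 and 7.22 in Treg and 8.40, 8.56 and 8.60 in Tconv (-1.27 ± 0.15), and the chemokine Ccl5 at 7.58, 7.68 and 7.55 against 8.75, 8.95 and 9.03 (-1.31 ± 0.13). Il21, a cytokine of helper T cells that maps to a diabetes region of NOD mice, stood at 6.14, 6.14 and 6.15 in Treg and at 8.58, 8.10 and 7.42 in Tconv (-1.89 ± 0.23, limma adjusted p = 2.90e-04). In B6g7 it was low in both populations, at 6.11, 6.14 and 6.22 in Treg and 5.95, 6.51 and 6.32 in Tconv, and the difference between the strains missed the threshold (-1.79, limma adjusted p = 0.094). Lta, which encodes lymphotoxin alpha, rose by 1.26 ± 0.12 and the opioid precursor gene Penk by 0.97 ± 0.15. The calls of Ifng (-1.18), Tnfsf11 (1.15), Lgals3 (0.89), Csf1 (0.46) and Fgl2 each ended in at least 3 fits without 1 array, with highest limma adjusted p of 0.176 (Ifng, without Treg replicate 2), 0.173 (Tnfsf11, without Tconv replicate 3), 0.086 (Lgals3, without Tconv replicate 3) and 0.193 (Csf1, without Tconv replicate 1). The higher count was 3 without Treg replicate 3 or Tconv replicate 3 and 4 without Tconv replicate 1 or Tconv replicate 2.

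Apoptosis and survival genes were called higher in 9 of 29 cases and lower in 1, Fasl (median change 0.21), and each of the 10 calls held without every single NOD array. Pmaip1, which encodes the BH3-only protein NOXA, stood at 10.94, 10.02 and 10.21 against 8.59, 8.06 and 8.09 (2.14 ± 0.25). The protective family member Bcl2l1 rose by 0.68 ± 0.11, the BH3-only gene Bid by 0.65 ± 0.13, and the inflammatory caspases Casp1 and Casp4 by 0.91 ± 0.14 and 1.08 ± 0.16. Genes of both promotion and inhibition of cell death were thus higher, while Bcl2 (0.16), Bcl2l11 (0.39) and Mcl1 (0.25) were not called.

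Of 35 cell cycle genes only Cdk6, a kinase of the G1 phase, was called (1.07 ± 0.11; 3 higher and 3 lower at an unadjusted p under 0.05), and Mki67 stood at 8.20, 7.79 and 7.85 against 8.12, 7.82 and 7.78 (0.04). The other probe sets of Cdk6 gave 0.41 and 0.13, neither called. The 2.86% called higher in this list equals the share over all genes. Of 18 glycolysis genes 3 (16.7%) were called higher, a larger share than over all genes: the glucose transporter Slc2a3 (1.42 ± 0.10), Eno3 (1.99 ± 0.14) and Ldhb (0.77 ± 0.08), while Slc2a1 (0.65), Ldha (-0.08) and Pkm (-0.18) were not, and without Tconv replicate 1 there was 1 lower call against 0 by limma with all arrays (5 higher and 4 lower at an unadjusted p under 0.05). The arrays of 5 glycolysis genes lay wholly higher in Treg and those of 5 wholly lower, where 8.28% and 11.1% of all genes did so. The median change of the list was 0.07. With the block Slc2a1 was called too (block adjusted p = 0.00981), and 1 gene lower. In the interferon response list 3 of 30 were called higher and 0 lower by limma (6 and 2 at an unadjusted p under 0.05, median change 0.05). Gbp3, a guanylate binding protein, stood at 11.64, 11.30 and 11.68 against 9.05, 9.17 and 9.85 (2.19 ± 0.20), and Ifitm3, a restriction factor of virus entry, changed by 1.83 ± 0.21. The call of Isg20 (0.91) was lost without Treg replicate 2, Treg replicate 3, Tconv replicate 1 or Tconv replicate 2 (highest limma adjusted p = 0.13), and Irf7 (-0.11), Stat2 (-0.17), Ifit3 (0.07) and Mx1 (0.36) were not called.

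Some MHC class II genes were higher in Treg. Of 9 measured, 3 were called higher and 0 lower by limma (6 and 0 at an unadjusted p under 0.05, median change 0.57). H2-Ob, a chain of the class II modulator DO, stood at 11.03, 11.09 and 10.94 against 8.76, 9.16 and 9.18 (1.99 ± 0.14). H2-Aa, the alpha chain of the class II molecule, stood at 8.98, 9.48 and 9.92 against 7.39, 7.40 and 7.48 (2.03 ± 0.23), with 2.32, 0.72 and 0.26 by other probe sets, the first 2 of them called. H2-Eb1 rose by 0.74 ± 0.13. The partner chain H2-Ab1 (0.01), the invariant chain Cd74 (0.34, limma adjusted p = 0.132) and the transactivator Ciita (0.06) were not called. With the replicate block 5 were called, H2-Oa (0.57, block adjusted p = 8.33e-04) and H2-DMa (0.58, 0.00948) being the additions. B cells carry much MHC class II, and their markers were set beside these values: 1 of 17 was called higher, Cd79b (0.75 ± 0.10), and 4 were higher and 1 lower at an unadjusted p under 0.05. With the block on the 6 NOD arrays alone 3 were called higher. Over all genes, the arrays of 8.28% lay wholly higher in Treg and those of 11.1% wholly lower. Of the B cell markers, the arrays of Cd79b, Cd72 (0.49), Bank1 (0.46) and Blk (0.24) lay wholly higher in Treg. Those of Vpreb3 (-0.11) lay wholly lower, while Cd79a (-0.18) and Ms4a1 (-0.00) overlapped. Ighm, the heavy chain of IgM, was at -0.31. The summed intensity of the 17 lay between 4715 and 5503 in Treg and between 5216 and 5774 in Tconv, and the part of B cells in the class II values was not tested. Of the 9 dendritic cell markers 0 were called by limma and 0 had an unadjusted p under 0.05, and their sum was 831 to 885 against 873 to 897.

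Markers of other cells that a CD4 sort could hold were called in some lists and not in others. Over all genes 2.86% were called higher and 1.52% lower. The shares were 13.3% and 20% for activated CD4 effector markers and 9.09% each for NK cell markers. Of plasma cell markers 14.3% were called higher and of CD8 T cell markers 16.7% lower. Lists this short hold few genes, so neither such shares nor a count of 0 says much. Of 15 monocyte and macrophage, 8 neutrophil, 7 erythroid and platelet and 9 stromal and endothelial markers, 0 were called by limma. At an unadjusted p under 0.05 there was 1 monocyte and macrophage marker, lower in Treg, and 0 of the other 3 lists, and 1 monocyte and macrophage marker was called with the replicate block. Their summed intensities in Treg and Tconv overlapped for neutrophil (663 to 697 against 675 to 700), stromal (646 to 686 against 651 to 674) and monocyte markers (7952 to 8865 against 7826 to 8471). The sum of 7 plasma cell markers was higher in Treg, 1987 to 2254 against 1334 to 1425. Xbp1, a factor of secretory cells, was the only one called (1.15 ± 0.13) and the only one whose arrays did not overlap, while Jchain (-0.20), Mzb1 (0.12) and Sdc1 (0.10) were not called. The sum of 6 CD8 T cell markers was lower in Treg, 670 to 711 against 924 to 1070, with Ccl5 as the only call, while Cd8a stood at 7.23 to 7.37 and 7.23 to 7.56. Among 11 NK cell markers, Eomes was called higher and Klrd1, which encodes CD94, lower. Klrd1 stood at 5.39, 5.16 and 5.88 in Treg and at 8.87, 9.05 and 9.55 in Tconv (-3.68 ± 0.22, 12.8-fold), while Ncr1 (-0.00), Klrc1 (-0.00, dim), Nkg7 (0.22) and Gzma (-0.34) were not called. Of 15 markers of activated CD4 effector cells, Il21, Tbx21 and Ifng were called lower and Bcl6 and Pdcd1 higher, and the summed intensity was 5770 to 7602 in Treg and 6754 to 9463 in Tconv. The part of such cells in any of these results was not tested.

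Large changes were also seen in genes outside these lists. App, the amyloid precursor protein gene, stood at 7.56, 7.64 and 7.54 in Treg and at 10.64, 10.89 and 10.79 in Tconv (-3.19 ± 0.17, 9.14-fold). Its dim probe sets gave -0.78, 0.20 and 0.13, the first of them called. Sgk1, a kinase of the PI3K route, stood at 9.31, 9.07 and 9.01 against 11.40, 11.10 and 11.14 (-2.08 ± 0.16), and Enc1 at 9.30, 9.58 and 9.70 against 11.29, 11.58 and 11.72 (-2.01 ± 0.13). Pou2af1, a coactivator of octamer factors, fell by 1.98 ± 0.12. Lrrc75b was at 5.01, 4.20 and 4.35 in Treg and Pdlim4 at 5.37, 4.71 and 5.21, both dim, against 9.27, 9.01 and 9.08 and 9.08, 8.81 and 9.25 in Tconv. Slc16a5, a monocarboxylate transporter gene (-2.09), Rgmb, a coreceptor of bone morphogenetic proteins (-1.72), and Xkrx (-1.66) had standard errors of 0.10, 0.08 and 0.10. The rises among them included Itih5 (3.43 ± 0.16), Mdfic (2.68 ± 0.09), the small GTPase exchange factor Tiam1 (2.81 ± 0.11), the prion protein gene Prnp (2.73 ± 0.14), the kinase gene Map3k8 (2.35 ± 0.15), the lubricin gene Prg4 (2.57 ± 0.13) and the transporter gene Slc22a2 (2.52 ± 0.15). Tiam1 gave -0.01 and -0.05 by dim probe sets and Prnp 0.09 by another.

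For some genes the changes within the numbered pairs were more regular than the group values show. The genes given here are hand-picked examples, and no count of such genes among all called genes is given. Ctla4 differed by 3.33, 2.83 and 2.90 between the arrays numbered 1, 2 and 3. The standard deviation of these 3 differences was 0.27, while that of the levels was 0.99 in Treg and 0.73 in Tconv, and the block brought the adjusted p from 0.00351 to 9.54e-06. Ifng stood at 9.27, 8.49 and 8.87 in Treg and at 10.46, 9.70 and 9.98 in Tconv, with replicate 1 the highest and replicate 2 the lowest of both, and the pairs differed by -1.20, -1.21 and -1.12. Its call, which the fit without a block lost with single arrays left out, had a block adjusted p of 1.34e-05. Maf and Tubb2b, a tubulin gene, were lowest in replicate 1 of both populations, Myb and Pmaip1 highest. Myb, a transcription factor best known from blood progenitors, differed by 2.11, 2.05 and 2.29 within pairs, at levels of 10.61, 10.06 and 10.04 against 8.49, 8.01 and 7.75. Il21 and Sema4a were less regular: the Treg values of Il21 were within 0.01 (SD) while Tconv spread by 0.59, and the pairs of Sema4a differed by -1.51, -1.17 and -1.89. The gap between 3' and 5' actin probe sets, a sign of RNA length, was smallest in replicate 1 of both populations (3.29, 4.70 and 4.48 in Treg and 2.97, 3.79 and 4.25 in Tconv, log2). It was larger in Treg than in Tconv in each numbered pair. The gap of Gapdh was also smallest in replicate 1 (4.35, 5.24 and 5.25 in Treg and 4.49, 4.74 and 5.09 in Tconv). In replicate 1 it was smaller in Treg than in Tconv. With the actin gap as a covariate 1384 probe sets were called higher and 841 lower, against 941 and 502 without it. Its part in the shared deviations was not tested. Among the genes called higher, the highest Treg array was replicate 1 in 214, replicate 2 in 107 and replicate 3 in 199.

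**Figure D4:**
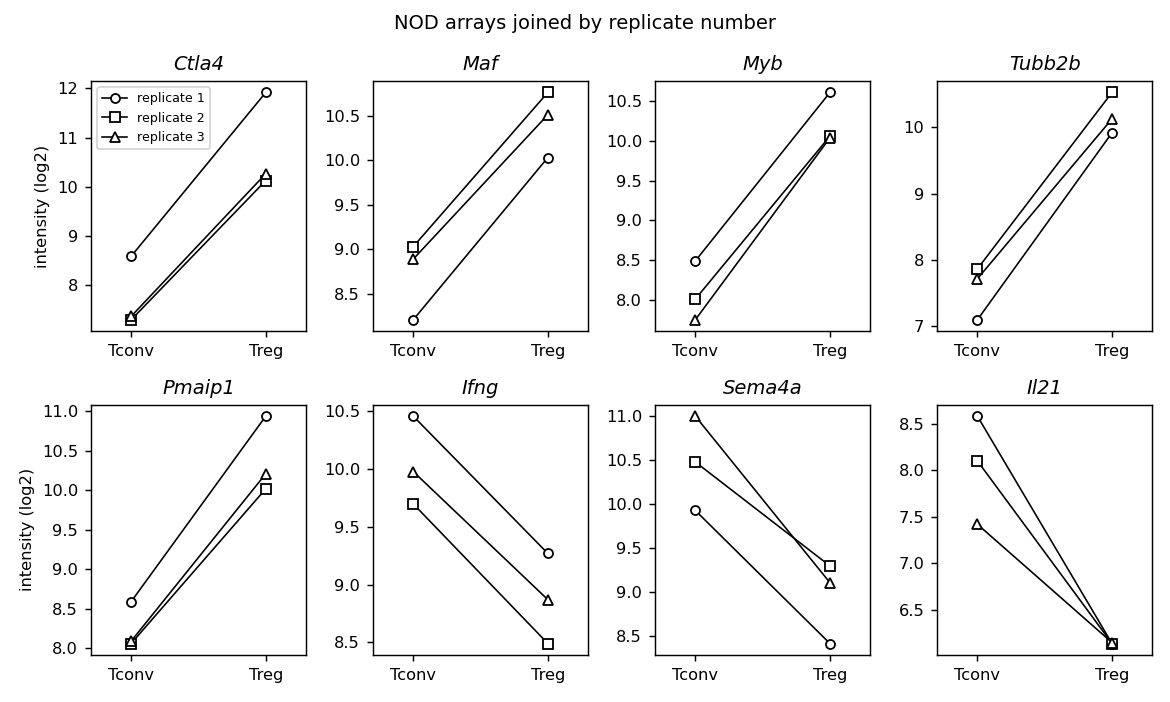
Log2 intensity of 8 hand-picked example genes in the NOD Tconv and NOD Treg arrays, with lines that join arrays of the same replicate number. The lines of Ctla4, Maf, Myb, Tubb2b, Pmaip1 and Ifng run nearly parallel, those of Sema4a cross, and those of Il21 meet at about the same Treg level (6.14, 6.14 and 6.15).

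Most genes called in NOD were also called in B6g7 in the same direction. Of the genes called higher in NOD, 356 of 520 were also called higher in B6g7 and 505 had the same sign there. Of those called lower 176 of 277 were called and 268 had the same sign. The shares of all genes called in B6g7, or of the same sign in both strains, are not given beside these counts. All 60 genes with the largest changes had the same sign in B6g7, where only Tubb2b among the rises and Il21 among the falls were not called. Tubb2b was nearly as high in B6g7 Treg (9.74, 10.47 and 10.03) as in NOD Treg (9.92, 10.53 and 10.13), but its Tconv values were 8.55, 9.44 and 9.61 in B6g7 and 7.09, 7.86 and 7.71 in NOD (difference of the changes 1.76, limma adjusted p = 0.379).

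The test of the difference itself called 20 genes (0.11%), and among the 60 genes above only Ntn4. Its Tconv levels were close in the strains, 5.94, 5.96 and 5.85 in B6g7, whereas its Treg level was 9.26, 9.10 and 8.68 in B6g7 and, as given above, over 11 in each NOD array (limma adjusted p = 0.00216). Ryr2, a calcium release channel, stood at 9.11, 9.0 and 9.04 in NOD Treg and 6.76, 6.87 and 6.82 in NOD Tconv, and at 6.03, 5.99 and 6.10 against 5.52, 5.82 and 5.49 in B6g7, so that both NOD populations lay above both B6g7 populations. Il18r1, an IL-18 receptor chain, was alike in the Tconv arrays (10.28, 10.21 and 10.41 in NOD, 10.25, 10.11 and 10.24 in B6g7), and its Treg arrays lay above these in NOD (11.40, 11.17 and 11.43) and below them in B6g7 (9.41, 9.52 and 9.69). St6galnac2, a sialyltransferase, was lower in NOD Treg (7.91, 7.96 and 7.96) than in NOD Tconv (9.44, 9.33 and 9.49), and lower than either in all B6g7 arrays (5.86 to 6.58). Nsg2 was at 8.69, 8.50 and 8.84 in NOD Treg and between 10.25 and 11.05 in the other 9 arrays. Cd86 had Treg values of 7.59, 7.22 and 7.44 in B6g7, below the 7.89 to 8.15 of NOD, and Tconv values of 6.51, 6.49 and 6.75, above the 6.04 to 6.19 of NOD; its difference of 1.11 was called in only 2 of the 12 fits without 1 array (highest limma adjusted p = 0.115, without NOD Treg replicate 3). Without that array 27 probe sets were called for the difference in place of 42.

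**Figure D5:**
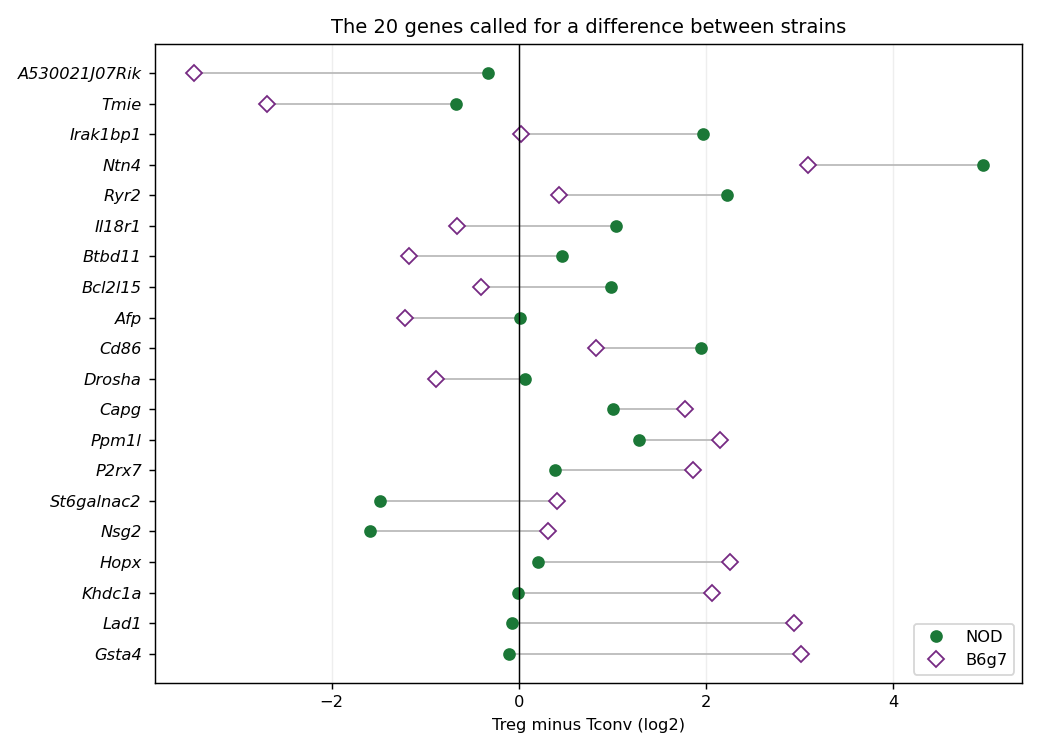
Treg minus Tconv change (log2, x axis) in NOD (filled circles) and B6g7 (open diamonds) of the 20 genes called for a difference between strains, ordered by the difference. In NOD, Ntn4 lies furthest right (4.96), while Gsta4, Lad1, Khdc1a and Hopx are near 0 in NOD and at 2.06 to 3.02 in B6g7.

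Sequence in front of the called genes was searched for short motifs of factors known in these cells. A promoter of 250 bases was at hand from RefSeq (GRCm38.p6) for 14367 genes, and motifs were read on both strands. The forkhead motif TGTTTAC was in 1.98% of the promoters of genes called higher, 1.36% of those called lower and 2.49% of all. For the RUNX motif TGTGGT the shares were 11.4%, 8.18% and 11.7%, for the TCF/LEF motif CTTTGA 12.6%, 12.3% and 12.3%, and for the AP-1 motif TGACTCA 3.21%, 1.82% and 3.82%. The shares of called genes were thus no higher than those of all genes, but for TCF/LEF among the genes called higher, which differed by less than a percentage point. Of the 60 genes with the largest changes 42 had a promoter that could be read, and 34 of these held none of the motifs. The forkhead motif was in that of Dapl1, where it starts 164 bases before the gene's start, RUNX in those of Il1rl2 and Sgk1, TCF/LEF in those of Tiam1, Slc22a2, Cnga1 and Sgk1, and AP-1 in those of Prnp and Atp8b4. The Foxp3 and Il2ra promoters shown held none of them.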

How the data were processed

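Affymetrix mouse arrays measured 4 groups of 3 arrays, which number limits the precision of each value. The deposited intensities are on a linear scale (5.78 to 27207, read from the values) and had been through RMA normalisation by the authors, according to the design text; what software ran it is not given in the sources used here. Their log2 was taken with no pseudocount or filter. Of 45101 probe sets 64 controls were left out and 45037 tested; 34945 name 1 gene in the platform annotation, 932 several and 9160 none there. A gene took the brightest, over the 12 arrays, of the probe sets that name no other gene (18193 genes, 18031 of them in the RefSeq table).

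limma 3.58.1 in R 4.3.3 fitted a mean per group to all 12 arrays. P-values were adjusted by Benjamini-Hochberg over all probe sets and called under 0.05. Errors are the fit's standard errors. With 3 arrays in each group the smallest p of an exact permutation test is 0.1, so none was run. The fit was tested on simulated data.

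Deviations from the group means of same-numbered NOD arrays correlated with r = 0.56, 0.31 and 0.40, so the numbers were taken to pair them; the main test has no block, as the series text names none. In B6g7 the values were 0.52, -0.08 and 0.50. The block fit is over all 12 arrays and takes a number to mean the same in both strains.

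The comparison and the 30 gene lists were chosen with earlier results of these data known. Genes were named by rule. These were Foxp3, Il2ra and the 30 largest called rises and falls among genes whose NOD arrays did not overlap. Up to 8 called members of a list by p and the genes called for the strain difference were added. Members not called are named as such, and Myb and other genes outside the rule were chosen after their values were seen. Alternatives were the block, array weights, an actin covariate, normalisation, a pseudocount, dim probe sets, probe set means and arrays left out. Promoters came from RefSeq tables; sequence from 1 chromosome was not used here.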

Additional observations from a re-analysis of the deposited data

Results flagged for a closer look

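The Treg minus Tconv change differed between NOD and B6g7, by limma's test of the difference, in 20 genes, given here as NOD minus B6g7 on the log2 scale. The change was more positive in NOD for A530021J07Rik (3.15), Tmie (2.02), Irak1bp1 (1.95), Ntn4 (1.87), Ryr2 (1.80), Il18r1 (1.70), Btbd11 (1.63), Bcl2l15 (1.39), Afp (1.24), Cd86 (1.11) and Drosha (0.96). It was more negative in NOD for Gsta4 (-3.12), Lad1 (-3.00), Khdc1a (-2.07), Hopx (-2.05), Nsg2 (-1.90), St6galnac2 (-1.89), P2rx7 (-1.47), Ppm1l (-0.87) and Capg (-0.77). Khdc1a, A530021J07Rik and Afp were dim in both NOD populations and Irak1bp1 in NOD Tconv. The Tconv level of Gsta4 was alike in both strains (6.40 to 6.54 in NOD, 6.40 to 6.57 in B6g7), and only B6g7 Treg stood apart (9.33, 9.60 and 9.55). Hopx was at 7.96, 7.71 and 7.94 in NOD Treg and at 10.74, 10.88 and 10.90 in B6g7 Treg. The calls of Btbd11 and Afp held in 6 of the 12 fits without 1 array, those of Ppm1l and Drosha in 2 and that of Capg in 1 (highest limma adjusted p = 0.0888, 0.098, 0.115, 0.116 and 0.178, without NOD Treg replicate 3 but for Drosha, without B6g7 Tconv replicate 2). Without the 4 arrays numbered 1, P2rx7 (limma adjusted p = 0.0622) and Bcl2l15 (0.144) were not called either. The cause of these differences was not tested.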

How the results depend on the processing

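The counts of probe sets called in NOD were 941 higher and 502 lower (65.2% higher), and 42 were called for the difference between strains. The replicate block gave 1346 higher and 1016 lower, 57% of the calls being higher, and 89 for the difference; on the 6 NOD arrays alone the block gave 1895 higher and 1914 lower (49.8% higher). Array weights gave 776 lower and 79 for the difference, the actin covariate 841 and 71, and the test without dim probe sets 26 for the difference. Without both NOD arrays numbered 1 there were 570 higher and 281 lower. Over the fits without 1 array the higher count ranged from 647 to 805, the lower count from 309 to 445 and the count for the difference from 27 to 38. The cause of these shifts was not tested, except that fewer arrays or probe sets entered some fits. Normalising again, centring on the median, a pseudocount of 32, an intensity trend, the 6 NOD arrays alone and leaving out the 4 arrays numbered 1 kept each count within 1.5 times. Of 180 named genes, 0 changed direction in any alternative run; 34 were not called without NOD Treg replicate 3 and 21 to 31 without each of the other NOD arrays, 33 without both NOD arrays numbered 1, 25 without the 4 arrays numbered 1, 15 on the 6 NOD arrays alone, 10 with the pseudocount, 22 by the mean over probe sets, 8 after centring, 4 after normalising again or with the trend and 0 with the block, the weights or the covariate. The 180 genes were named largely because they were called in the main fit, and many alternatives refit the same arrays. That 0 of them changed direction is thus no independent support. Of the 926 other probe sets of called genes 226 were called in the same direction, 0 in the opposite one and 777 shared the sign.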
